A study of Mus musculus with 17 samples.

Results

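The stretch described here is the 48 kb flank upstream of the mouse alpha-globin enhancers, on chromosome 11 from 32085000 to 32132999 (mm9), which holds the genes Il9r, Snrnp25, Rhbdf1 and Mpg in this order. Its members were the listed pairs of restriction fragments in which the midpoint of at least 1 fragment lay in the flank. They were 73791 of the 963910 fragment pairs (7.66%) listed for both alpha-globin viewpoints. For the R2 enhancer viewpoint they were 19521 of 514959 pairs (3.79%), and for the alpha CTCF viewpoint 54270 of 448951 pairs (12.1%). In all, 214 fragments had their midpoint in the flank.

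The contacts were measured by Tri-C, in which cross-linked chromatin is cut with NlaIII, ligated and enriched for a chosen fragment, the viewpoint. A pair counted in Tri-C is a pair of fragments found in 1 read with the viewpoint, so that each count is a three-way contact joined in 1 ligation product. The erythroid group was Ter-119+ cells of female C57BL/6 mice. The mice had received 3 doses of phenylhydrazine at intervals of 12 h, and the spleens were taken after 5 days. Phenylhydrazine destroys red cells, and the spleen then makes new ones, so these are cells of a stressed spleen. The ES group was E14, an embryonic stem cell line from 129/Ola mice. Strain and cell type therefore change together and cannot be told apart below. The labels give 3 biological replicates of each group, with 10 erythroid and 7 ES libraries as their technical replicates. Whether these came from separate mice or cultures is left unsaid, and if they did not, the p-values measure only a technical spread. Tri-C reads no RNA, so neither cell type could be checked against its marker genes. The design asks which sequences meet at the same time when the globin genes are active, in erythroid cells, and when they are inactive, in ES cells.

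As background, the alpha-globin genes are switched on in erythroid cells by a cluster of enhancers named R1, R2, R3, Rm and R4, which lie upstream of them in and near the gene Nprl3. CTCF is a protein that binds DNA and is known for marking the borders of chromatin domains, in part by halting the cohesin complex that extrudes loops. The pair of CTCF sites named -38/-39 lies between the enhancers and the 4 neighbour genes, and the CTCF sites +44 and +48 lie on the far side of the globin genes. The 4 neighbours are not globin genes. Il9r encodes the receptor chain for interleukin-9, a cytokine of lymphocytes and mast cells. Snrnp25 encodes a protein of the minor spliceosome, which removes a rare class of introns. Rhbdf1 encodes iRhom1, a rhomboid protein without protease activity that takes part in the traffic of membrane proteins. Mpg encodes a DNA glycosylase that starts base excision repair by removing alkylated bases.

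The starts of 3 of these genes are shown because NlaIII cuts at CATG, so the letters set where a start can be told from its surroundings, and because GATAA is the core that GATA factors, the regulators of erythroid genes, bind. The sequences are the 250 bases upstream of each RefSeq start on the gene's own strand, from build GRCm38.p6, with CATG and GATAA (or TTATC, its other strand) in capitals.
Il9r: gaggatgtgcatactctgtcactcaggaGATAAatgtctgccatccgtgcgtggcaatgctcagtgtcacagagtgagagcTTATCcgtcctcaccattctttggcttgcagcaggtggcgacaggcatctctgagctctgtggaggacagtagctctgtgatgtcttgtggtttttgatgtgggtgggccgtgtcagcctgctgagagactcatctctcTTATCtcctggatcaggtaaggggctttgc
Snrnp25: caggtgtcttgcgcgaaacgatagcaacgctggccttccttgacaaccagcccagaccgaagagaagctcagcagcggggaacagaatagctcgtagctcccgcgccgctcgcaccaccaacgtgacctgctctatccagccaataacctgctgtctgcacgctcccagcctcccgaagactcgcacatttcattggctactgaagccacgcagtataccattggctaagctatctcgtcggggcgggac
Mpg: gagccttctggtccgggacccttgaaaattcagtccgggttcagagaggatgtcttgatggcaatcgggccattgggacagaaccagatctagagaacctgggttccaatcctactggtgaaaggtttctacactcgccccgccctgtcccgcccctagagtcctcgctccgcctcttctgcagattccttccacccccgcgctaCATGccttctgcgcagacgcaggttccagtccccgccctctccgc
The Il9r stretch held 3 GATAA matches and no CATG, the Snrnp25 stretch held neither, and the Mpg stretch held 1 CATG and no match to the other. Of the 32851 mouse stretches of this length in the same table, 53.9% held CATG and 22.6% held GATAA. A further search was for CCGCCC, a GC-rich string that can share 1 base with the NlaIII site. It stood 3 times in the Mpg stretch and 1 time in that of Snrnp25 (either strand, 32.7% of all stretches). Rhbdf1 is named only. A match describes these letters and is no evidence of binding.

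The R2 viewpoint lay at 32149923 to 32152111, so the flank began 18.0 kb upstream of its centre and ended 66.0 kb upstream. The alpha CTCF viewpoint lay at 32136092 to 32138888, at the -38/-39 sites, and the flank spanned 4.5 to 52.5 kb upstream of its centre. Levels are given as pairs per 1000 pairs with both fragments on chromosome 11, because for R2 the share of counts that lay wholly on chromosome 11 differed between the groups. It was 25.91% to 41.63% in the erythroid replicates against 63.29% to 76.98% in ES replicates for R2, and 50.03% to 66.23% against 52.93% to 65.93% for alpha CTCF. The depth was 74599 to 273029 such pairs per replicate for R2 and 85615 to 304448 for alpha CTCF. No molecular identifiers are named in the sources used here, so counts may include PCR copies and are not independent molecules. In the erythroid libraries the mean count per listed flank pair was 1.52 to 2.1 in the first technical replicates and 3.82 to 5.96 in the later ones. In ES libraries it was 4.21 to 6.07. The setting with only the first technical replicates therefore sets erythroid libraries of low mean count against ES libraries without it. Both viewpoints were read in the same libraries, so they are not independent samples.

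Seen from the R2 enhancer, the flank as a whole was contacted less in erythroid cells than in ES cells. The level was 57.1, 55.2 and 66.2 pairs per 1000 in erythroid replicates 1 to 3, and 123, 104 and 104 in ES replicates 1 to 3. No erythroid replicate reached the lowest ES replicate, and the means were 59.5 ± 5.89 and 110.6 ± 11.1 (SD, n = 3; the exact permutation test, two-sided, gave p = 0.1, the lowest value possible with 3 against 3). Seen from the alpha CTCF site, which lies next to the flank, the level was 260, 243 and 225 in erythroid cells and 271, 236 and 255 in ES cells. Here the groups overlapped, with means of 242.5 ± 17.7 and 253.8 ± 17.4 (SD, n = 3; exact permutation p = 0.5). Over the 10 levels and shares compared in this way the adjusted values were 0.125 for R2 and 0.5 for alpha CTCF.

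These levels are relative to the other contacts of each viewpoint. The stretch of equal length at the same distance on the other side of R2, which holds the globin genes, took 286.1 ± 13.6 pairs per 1000 in erythroid cells and 138.7 ± 8.57 in ES cells (SD, n = 3). Of all R2 pairs that touched the flank or this mirror stretch, the flank took 16.9%, 15.5% and 19.4% in erythroid cells and 46.2%, 42.1% and 44.7% in ES cells. The groups did not overlap (exact permutation p = 0.1, n = 3, adjusted 0.125). From alpha CTCF, whose mirror stretch holds the enhancer cluster and part of the globin genes, the flank took 65.1%, 67.4% and 57% in erythroid cells, the ES values were 55.7%, 55% and 57.5%, and the groups overlapped (exact permutation p = 0.2, n = 3, adjusted 0.222).

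Set against the next 48 kb upstream instead, the flank held the larger share in erythroid cells. From R2 it took 82.6% ± 0.877 of the pairs touching either stretch in erythroid cells and 70.8% ± 2.66 in ES cells. For alpha CTCF these shares were 85.5% ± 0.327 and 79.8% ± 0.588 (SD, n = 3). In neither viewpoint did the groups overlap (exact permutation p = 0.1 each, adjusted 0.125). The next stretch itself was contacted 12.6 ± 1.71 times per 1000 in erythroid cells and 45.6 ± 6.15 in ES cells from R2, and 41.2 ± 2.91 against 64.3 ± 5.56 from alpha CTCF.

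The 4 genes were set apart by windows of 14 kb for Il9r, 4 kb for Snrnp25, 14 kb for Rhbdf1 and 8 kb for Mpg. The windows are approximate. They were placed from general knowledge of mm9, and their starts relative to Il9r differ by at most 1.0 kb from the spacing of the RefSeq genes on GRCm38.p6. The RefSeq Il9r is 17.7 kb long and so runs on into the 4 kb stretch between the Il9r and Snrnp25 windows. RefSeq lists it on the minus strand, so by this spacing its start lies in that stretch, outside the Il9r window. The pseudogene Gm12109 and the near end of Nprl3 also lie in the RefSeq span.

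Relative to all chromosome 11 contacts of R2, the 4 gene windows were contacted less in erythroid cells. The Il9r window, the most distant from R2, fell most. Under other scalings, given after the values, only the Il9r window kept its direction throughout among the 4. The Il9r window held 9.32, 9.17 and 10.8 pairs per 1000 in erythroid cells and 31.5, 25 and 29 in ES cells. The groups lay far apart, and the change was -1.55 on the log2 scale (SE 0.16, adjusted p = 9.57e-12). Here and below, changes are erythroid minus ES, from edgeR's quasi-likelihood test with Benjamini-Hochberg adjustment over all windows and bins fitted. The Snrnp25 window held 3.83, 3.82 and 4.97 pairs per 1000 against 9.16, 8.16 and 9.02, again with no overlap, and fell by 1.06 (SE 0.18, adjusted p = 4.44e-06). The Rhbdf1 window held 17.9, 19 and 21 against 35.8, 25.6 and 28.4 and fell by 0.64 (SE 0.15, adjusted p = 0.000493). The Mpg window, nearest to R2, held 20.5, 17.8 and 23.2 against 37.1, 38.5 and 29.3 and fell by 0.77 (SE 0.16, adjusted p = 5.73e-05). So 4 of 4 gene windows were lower, where 70.8% of the 130 windows and bins tested within 150 kb of R2 were lower. The median change was -0.91 over the 4 windows and -1.46 over all tested.

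These changes depend on what they are measured against. Relative to the flank's own pairs the Il9r change was -0.66 (adjusted p = 0.00458), that of Snrnp25 -0.18 (adjusted p = 0.36), and those of Rhbdf1 and Mpg turned to 0.27 and 0.12 (adjusted p = 0.229 and 0.594). With edgeR's TMM factors, which centre most features on no change, Il9r stayed lower at -0.65 (adjusted p = 0.00169), Snrnp25 was -0.16, and Rhbdf1 and Mpg again turned, to 0.27 and 0.12. DESeq2 with its own size factors gave -0.37 for Il9r (adjusted p = 0.103) and turned Snrnp25 to 0.11, Rhbdf1 to 0.55 (adjusted p = 0.0145) and Mpg to 0.37. The median over all 2 kb bins moved from -1.38 to -0.42 with TMM and to -0.21 with DESeq2. The Il9r window had the lowest value of the 4 gene windows on each of these scales, although the windows were not tested against each other. The stretch next to it, which holds the RefSeq start of Il9r, changed by -0.94 (SE 0.21, adjusted p = 0.000199) on the chromosome 11 scale. Relative to the flank's own pairs that stretch was at -0.02 (adjusted p = 0.923). It was at -0.03 with TMM and at 0.28 with DESeq2 (adjusted p = 0.903 and 0.328).

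From alpha CTCF, the Il9r window was again lower in erythroid cells, by less, and the other 3 gene windows did not pass the test. The stretch that holds the RefSeq start of Il9r did not pass either (-0.36, SE 0.21, adjusted p = 0.149). The Il9r window held 35.7, 32.3 and 28.6 pairs per 1000 in erythroid cells and 47, 44.2 and 44.4 in ES cells, with no overlap, and a change of -0.49 (SE 0.13, adjusted p = 0.00178). Relative to the flank's own pairs it was -0.43 (adjusted p = 0.00248). The call ended with pairs within 150 kb as total (-0.37, adjusted p = 0.143), with TMM (-0.12, 0.432), with DESeq2 (-0.16, 0.407) and with only the libraries of the first technical replicates (-0.41, 0.0523). Snrnp25 held 14.5, 12.6 and 12.8 against 16.5, 11.7 and 16.5, a change of -0.16 (SE 0.19, adjusted p = 0.493). Rhbdf1 held 70, 71.8 and 66 against 78.1, 64.3 and 76.4, a change of -0.08 (SE 0.10, adjusted p = 0.539). Mpg held 127, 112 and 107 against 120, 108 and 108, a change of 0.04 (SE 0.08, adjusted p = 0.655). In all 3 the groups overlapped. So 1 of 4 gene windows was lower, where 34.6% of the 130 windows and bins tested were. With TMM instead, Rhbdf1 (0.31, adjusted p = 0.00426) and Mpg (0.42, adjusted p = 4.72e-05) were higher in erythroid cells, and with DESeq2 Mpg was (0.38, adjusted p = 0.0373).

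**Figure D1:**
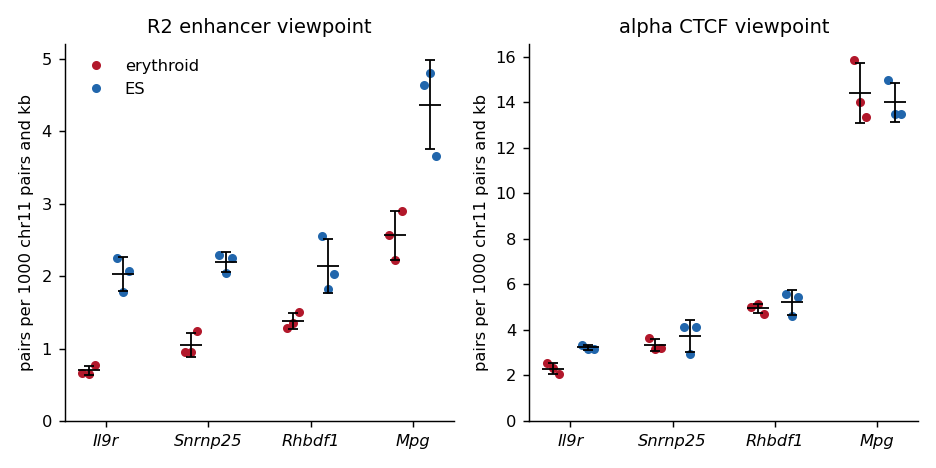
Contact level of the 4 gene windows, in pairs per 1000 chromosome 11 pairs and per kb of window, for the R2 enhancer viewpoint (left) and the alpha CTCF viewpoint (right). Points are biological replicates and bars the mean with SD (n = 3 per cell type); from R2 the erythroid points of each gene lie below its ES points, and from alpha CTCF only those of Il9r do.

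Per kb of window, the levels rose towards the viewpoints. From R2 in erythroid cells they were 0.696 ± 0.0624 pairs per 1000 and kb at Il9r, 1.05 ± 0.166 at Snrnp25, 1.38 ± 0.112 at Rhbdf1 and 2.56 ± 0.333 at Mpg (SD, n = 3). No neighbours in this order overlapped. In ES cells the first 3 genes were on a level, at 2.04 ± 0.235, 2.19 ± 0.136 and 2.14 ± 0.378, and their replicates overlapped, while Mpg stood above them at 4.37 ± 0.615. From alpha CTCF the erythroid levels were 2.30 ± 0.256, 3.33 ± 0.266, 4.95 ± 0.213 and 14.4 ± 1.29, again without overlap between neighbours. The ES levels were 3.23 ± 0.111, 3.72 ± 0.695, 5.21 ± 0.538 and 14 ± 0.882, with overlap between Il9r and Snrnp25 only. The means of the 4 genes were thus graded with distance in 3 of the 4 profiles, and close together over Il9r, Snrnp25 and Rhbdf1 in ES cells seen from R2.

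Whether the change between cell types differs between the viewpoints was tested by the interaction of both in edgeR, with the replicate as a term. For each gene the erythroid change was lower from R2 than from alpha CTCF, a direction that TMM factors turned. The difference of the log2 changes was -1.05 (SE 0.22, adjusted p = 0.000486) at Il9r and -0.92 (SE 0.27, adjusted p = 0.00623) at Snrnp25. It was -0.55 (SE 0.19, adjusted p = 0.0149) at Rhbdf1 and -0.81 (SE 0.18, adjusted p = 0.000872) at Mpg. This is 4 of 4 windows, where 49.6% of the 125 windows and bins covered from both viewpoints were lower from R2. The call at Rhbdf1 was lost without erythroid replicate 1 (-0.49, adjusted p = 0.0665) and without ES replicate 1 (-0.47, adjusted p = 0.103). With only the first technical replicates, Snrnp25 (-0.59, adjusted p = 0.166) and Rhbdf1 (-0.49, adjusted p = 0.0967) missed the threshold. With TMM factors the differences turned to 0.10, 0.23, 0.60 and 0.34 and none was past the threshold, with adjusted p from 0.0856 at Rhbdf1 to 0.937 at Il9r.

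In 2 kb bins, 19 of the 24 flank bins were lower from R2 in erythroid cells and 0 were higher, where 71.4% of the 147 bins tested were lower and 13.6% higher. At an unadjusted p under 0.05 the counts were the same, 19 and 0. The median change was -0.98 over the flank and -1.38 over all bins. The replicate groups did not overlap in 21 of 24 bins, against 82.3% of all bins. All 24 bins passed the count minimum. The split depended on the scaling: TMM gave 2 lower and 4 higher, DESeq2 2 lower and 6 higher, and the flank's own total 4 lower and 4 higher.

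The 3 bins that fell most among those without overlap were all on Il9r. The bin from 32089000 to 32090999 held 2.02, 1.3 and 1.76 pairs per 1000 in erythroid cells and 6.15, 6.46 and 6.17 in ES cells, a change of -1.88 (SE 0.23, adjusted p = 3.82e-10). The bin from 32093000 to 32094999 held 1.07, 1.25 and 1.27 against 4.77, 3.44 and 4.19, a change of -1.79 (SE 0.29, adjusted p = 5.35e-07). The bin from 32087000 to 32088999 held 0.826, 0.523 and 1.04 against 3.35, 1.85 and 2.8, a change of -1.73 (SE 0.39, adjusted p = 0.000123). Relative to the flank's own pairs these 3 bins were still lower, at log2 changes of -1.0, -0.89 and -0.85 in the order given (adjusted p = 5.12e-05, 0.00492 and 0.0472). With TMM and with DESeq2 the call of the last was lost (-0.76, adjusted p = 0.0708, and -0.57, adjusted p = 0.14).

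The 5 flank bins that were not called from R2 lay in the Rhbdf1 window, between Rhbdf1 and Mpg, and at the end of the Mpg window towards Rhbdf1. The other bins of the Mpg window, at the end nearest R2, were lower. Of the 5, the 2 with the highest change values are described first. The bin from 32121000 to 32122999, the end of the Rhbdf1 window towards Mpg, held 2.23, 2.31 and 2.69 pairs per 1000 from R2 in erythroid cells and 2.6, 1.58 and 1.73 in ES cells, and its change was 0.29 (SE 0.32, adjusted p = 0.387). The next bin, between Rhbdf1 and Mpg, held 4.24, 3.59 and 4.22 against 5.48, 3.82 and 4.35, a change of -0.18 (SE 0.21, adjusted p = 0.414). In both bins the groups overlapped. Relative to the flank's own pairs both were higher in erythroid cells, by 1.20 (SE 0.27, adjusted p = 9.99e-05) and 0.72 (SE 0.19, adjusted p = 0.00105). Seen from alpha CTCF, these bins held 6.7, 7.59 and 6.9 against 5.82, 4.74 and 5.44, without overlap, and 17.2, 18 and 12.8 against 13.6, 9.95 and 12.6, with overlap. Their changes there were 0.40 (SE 0.23, adjusted p = 0.136) and 0.40 (SE 0.18, adjusted p = 0.0594), and the second passed the threshold relative to the flank's own pairs (0.47, adjusted p = 0.0333). Of the 3 other bins not called from R2, those from 32117000 and 32125000 were also higher relative to the flank's own pairs (0.49, adjusted p = 0.0311, and 0.63, adjusted p = 0.0466), and that from 32109000 did not pass (0.48, adjusted p = 0.168). These 5 bins were named after their values were seen.

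From alpha CTCF, 6 of 24 bins were lower and 0 higher, where 35.4% of the 147 bins tested were lower and 12.2% higher. At an unadjusted p under 0.05 there were 7 lower and 1 higher. The median was -0.26 over the flank and -0.37 over all bins, and the groups did not overlap in 9 of 24 bins against 53.7% of all. TMM gave 0 lower and 7 higher, DESeq2 0 lower and 5 higher, and the total within 150 kb gave 0 in either direction with 1 higher at an unadjusted p under 0.05. No bin was called without erythroid replicate 1, without ES replicate 1 or without ES replicate 3. The 3 bins that fell most among those without overlap lay at the start of the flank and on Il9r. The bin from 32085000 to 32086999 held 3.62, 3.36 and 2.77 against 5.02, 4.64 and 5.34 (-0.62, SE 0.24, adjusted p = 0.0251). The bin from 32087000 to 32088999 held 3.3, 3.6 and 2.21 against 4.74, 4.85 and 4.37 (-0.62, SE 0.24, adjusted p = 0.028). The bin from 32095000 to 32096999 held 7.01, 6.56 and 4.89 against 8.6, 9.38 and 9.77 (-0.59, SE 0.22, adjusted p = 0.0251).

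**Figure D2:**
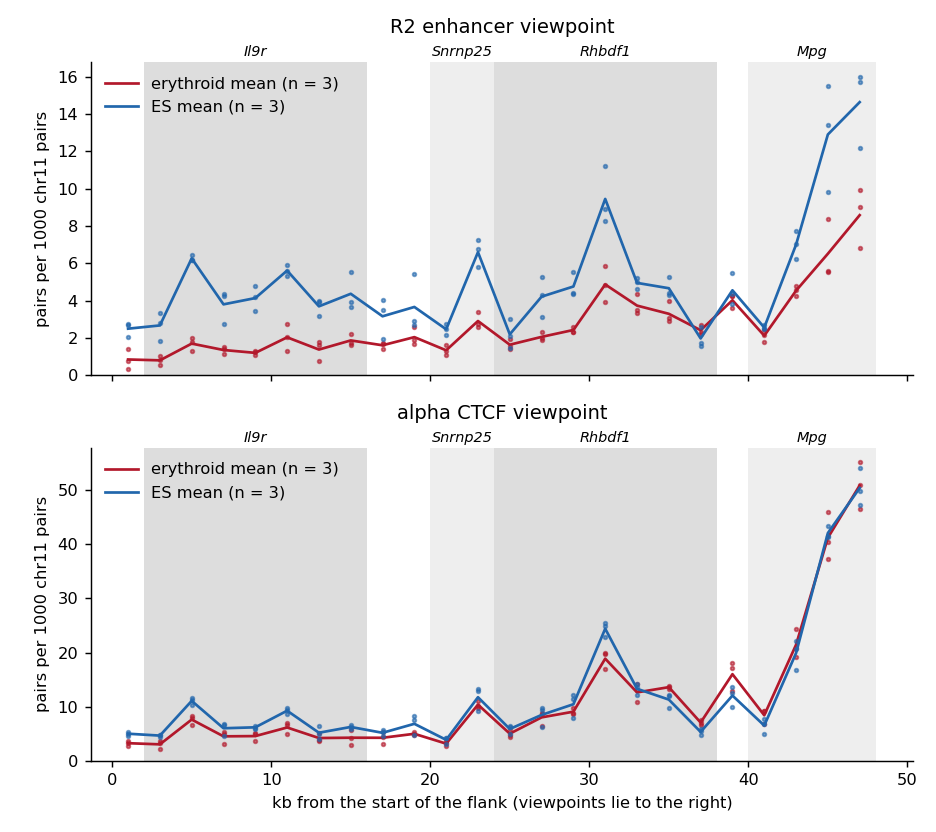
Contact level in each of the 24 bins of 2 kb, in pairs per 1000 chromosome 11 pairs, against the distance in kb from the start of the flank, from R2 (top) and alpha CTCF (bottom). Lines are means and points the biological replicates (n = 3 per cell type), and grey bands are the gene windows; the peak at 30 to 32 kb, in the Rhbdf1 window, is present in both cell types and from both viewpoints.

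The level did not rise smoothly towards the viewpoints. In both cell types and from both viewpoints it had local maxima in the same 7 bins, those beginning 4, 10, 14, 18, 22, 30 and 38 kb from the start of the flank. Some were slight, as at 14 kb from alpha CTCF in erythroid cells (4.265 against 4.252 in the higher neighbour). Bin levels were not corrected for the number or length of the fragments in a bin. The part of this in the shared maxima was not tested. The highest away from Mpg was the bin from 32115000 to 32116999 in the Rhbdf1 window. From R2 it held 3.92, 4.83 and 5.84 pairs per 1000 in erythroid cells and 11.2, 8.25 and 8.89 in ES cells. From alpha CTCF it held 17, 19.7 and 19.9 against 24.9, 22.9 and 25.4. It was lower in erythroid cells from both viewpoints, by 0.95 (SE 0.18, adjusted p = 1.5e-05) and 0.37 (SE 0.15, adjusted p = 0.0353) on the log2 scale. Its ratio to the mean of its neighbours was 1.59 ± 0.357 in erythroid and 1.94 ± 0.164 in ES cells from R2, and 1.76 ± 0.279 and 2.08 ± 0.201 from alpha CTCF (SD, n = 3). On average the ratio was lower in erythroid cells from both viewpoints, and the groups overlapped (exact permutation p = 0.3 each, n = 3).

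**Figure D3:**
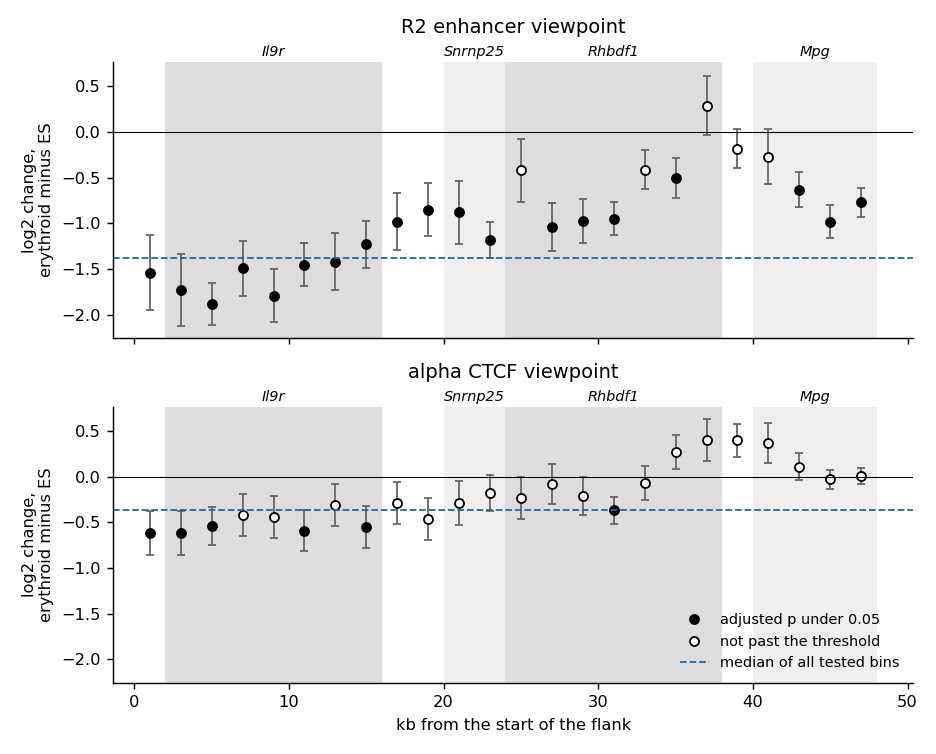
Change of each 2 kb bin of the flank between cell types, as log2 erythroid minus ES with its standard error, against the distance in kb from the start of the flank, from R2 (top) and alpha CTCF (bottom). Filled points passed the adjusted threshold, and the dashed line is the median of all bins tested; from R2 the values are lowest on Il9r, near 0 between Rhbdf1 and Mpg, and lower again within Mpg.

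Bin by bin, 15 of the 24 flank bins were lower from R2 than from alpha CTCF in the interaction test and 0 were higher, where 50.7% of the 142 bins covered from both viewpoints were lower and 15.5% higher. At an unadjusted p under 0.05 the counts were 17 and 0. The count of bins was 8 without erythroid replicate 1, 6 without ES replicate 1 and 9 without ES replicate 2, and 0 with TMM (2 lower and 1 higher at an unadjusted p under 0.05).

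The highest single fragments of the flank lay in the Mpg window. The fragment from 32131631 to 32131790 (160 bp) had the highest mean level in both cell types and from both viewpoints. From R2 it was found in 1.24, 1.09 and 0.783 pairs per 1000 in erythroid cells and in 1.56, 1.99 and 2.11 in ES cells, without overlap. From alpha CTCF it was found in 7.02, 7.44 and 5.41 against 6.36, 6.13 and 6.24, with overlap. Its neighbour from 32131526 to 32131630 was among the 3 highest in 3 of the 4 profiles, with 0.959 ± 0.212 against 1.78 ± 0.279 from R2 and 6.33 ± 0.482 in erythroid cells from alpha CTCF. All 12 places of these lists, the 3 highest fragments per viewpoint and cell type, were taken by fragments of the Mpg window. Single fragments were not tested.

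The partner of a flank fragment is the other fragment in its pair. Partners beyond the globin genes took a larger share in erythroid cells from both viewpoints, and from R2 those at the globin genes did too. No partner class passed the test after adjustment. The mirror stretch of R2, which holds the globin genes, was itself contacted more in erythroid cells (286.1 against 138.7 on the level scale used above). Whether the partner shares of the flank differ from those of all R2 pairs was not tested. Seen from R2, 6.93%, 7.51% and 6.96% of the flank's pairs in erythroid cells had their partner at the globin genes, against 3.7%, 2.66% and 3.69% in ES cells. A further 6.73%, 6.69% and 6.11% against 4.85%, 2.18% and 4.89% had it beyond the globin genes. Partners upstream of the flank took 1.19%, 1.57% and 1.7% against 3.41%, 1.88% and 3.73%, and partners on other chromosomes 14.7% ± 1.501 against 8.85% ± 1.55 (SD, n = 3). In these 4 classes the groups did not overlap (exact permutation p = 0.1 each, the lowest possible, adjusted 0.2 over the 16 comparisons of both viewpoints). The enhancer cluster, in which R2 lies, took 12.6% ± 2.16 against 15.8% ± 2.97, and the 11.5 kb between flank and enhancers 6.70% ± 1.08 against 8.53% ± 1.24, with overlapping groups (exact permutation p = 0.2 each, n = 3). The enhancer difference of -3.18 percentage points was -4.89 with each fragment pair counted once and -5.28 without pairs of neighbouring fragments, where the groups did not overlap (exact permutation p = 0.1 each, n = 3). Elsewhere on chromosome 11 lay 19.4% ± 0.775 against 17.7% ± 4.14. Fragments listed on other chromosomes carried fragment boundaries of chromosome 11. Whether that class holds contacts between chromosomes was not tested.

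Seen from alpha CTCF, partners beyond the globin genes took 8.32%, 7.99% and 7.83% of the flank's pairs in erythroid cells and 4.27%, 2.9% and 4.25% in ES cells. Partners in the enhancer cluster took 2.58%, 2.08% and 3.12% against 6.09%, 3.93% and 5.02%. The 11.5 kb between flank and enhancers, which hold this viewpoint, took 10.01% ± 0.862 against 13.2% ± 1.17, and other chromosomes 13.4% ± 2.25 against 9.35% ± 1.67. In these 4 classes the groups did not overlap (exact permutation p = 0.1 each, n = 3, adjusted 0.2). At the globin genes themselves the shares were 3.39%, 2.15% and 3.97% against 2.98%, 2.25% and 3.72%, with overlap (exact permutation p = 0.8, n = 3). At the globin genes the difference was 3.78 percentage points from R2 and 0.188 from alpha CTCF, and the difference between viewpoints was not tested.

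**Figure D4:**
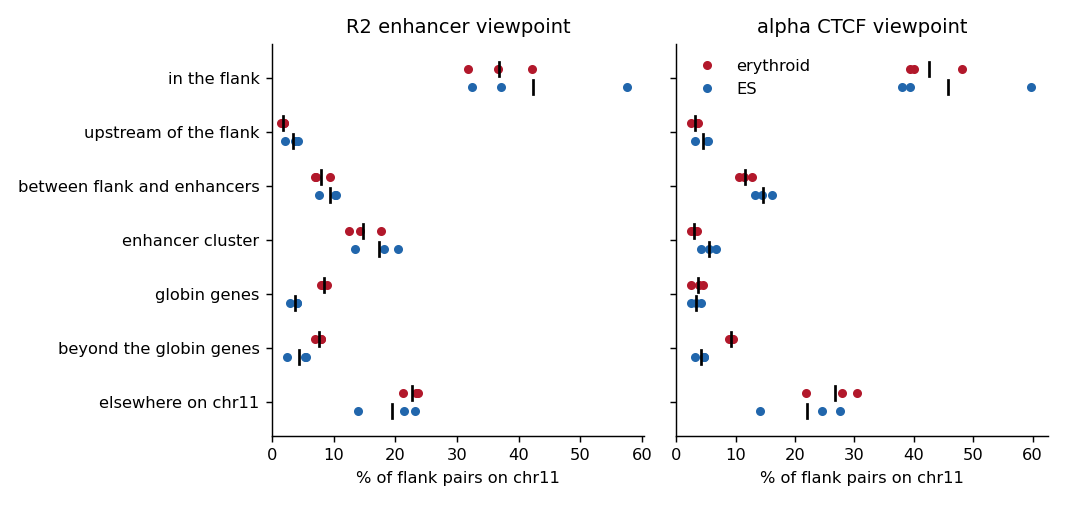
Where the partner of a flank fragment lay, as a percentage of the flank's pairs with both fragments on chromosome 11, from R2 (left) and alpha CTCF (right). Points are biological replicates and black ticks their mean (n = 3 per cell type); from R2 the shares at the globin genes are 8.36% ± 0.481 in erythroid and 3.68% ± 0.71 in ES cells on this base, and the groups do not overlap.

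Pairs with both fragments in the flank were the largest class. From R2 they took 26.9%, 30.9% and 36.6% of the flank's pairs in erythroid cells and 33.5%, 53.5% and 29.3% in ES cells, where ES replicate 2 stood apart. From alpha CTCF they took 34%, 33.8% and 42.8% against 35.4%, 55.4% and 34%, again with ES replicate 2 highest. The groups overlapped from both viewpoints (exact permutation p = 0.6 each, n = 3). From alpha CTCF the difference of -4.72 percentage points was -6.04 with each fragment pair counted once and -5.59 without pairs of neighbouring fragments, and the groups then lay apart (exact permutation p = 0.1 each, n = 3). Most such pairs joined neighbouring fragments, no more than 30 bp apart: 70.2% ± 2.94 of them in erythroid and 66.5% ± 5.84 in ES cells from R2, and 63.0% ± 3.63 against 57.4% ± 7.66 from alpha CTCF (SD, n = 3). Whether such pairs were cut and ligated or never cut was not tested. Without these pairs, on the chromosome 11 scale, all 4 gene windows stayed lower from R2, at -1.53, -0.96, -0.61 and -0.82 in the order Il9r, Snrnp25, Rhbdf1 and Mpg, and the CTCF count of lower bins was 2.

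Pairs that joined a gene window to another gene or to a regulatory site were then tested one by one, as three-way contacts with the viewpoint. The sites are 3 kb windows placed by their usual names. From R2, 41 of 46 possible pairs with a gene passed the count minimum. In erythroid cells 8 of the 41 were lower and 0 higher, where 9.52% of all 84 pairs tested were lower and 17.9% higher, so the 8 lower pairs with a gene window were all the lower pairs there were. At an unadjusted p under 0.05 there were 12 lower and 0 higher, and DESeq2 gave 11 lower and 0 higher. The median change was -0.53 over these pairs and 0.54 over all pairs.

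Il9r took part in 5 of the 8 lower pairs. Counts of a pair are also counts of its gene window, and the Il9r window itself changed by -1.55 (SE 0.16) from R2. Whether any pair changed more than its gene window was not tested. Il9r with R3 was read 19, 1 and 46 times in erythroid replicates and 254, 87 and 109 times in ES replicates, which is 0.234, 0.0134 and 0.235 against 0.930, 0.811 and 0.765 per 1000. The groups lay apart and the change was -2.33 (SE 0.60, adjusted p = 0.00679); without ES replicate 1 it was -2.24 (adjusted p = 0.0503). Il9r with R1 was read 12, 7 and 62 times against 270, 35 and 96 times, a change of -1.78 (SE 0.56, adjusted p = 0.0235). Il9r with R4 was read 0, 0 and 1 times against 22, 18 and 5 times. The change was -4.78 (SE 1.77, adjusted p = 0.0449). With reads summed over replicates, the ES frequency was 30.2 times the erythroid one, with an exact 95% interval of 5.16 to 1220. This interval takes every read as independent, although counts may include PCR copies, and it leaves out the spread between replicates. With repeats of a fragment pair within a library left out, 1 erythroid and 13 ES counts remained, and the pair was not tested in that setting. Il9r with Rhbdf1 was read 21, 14 and 11 times against 272, 15 and 91 times, a change of -1.88 (SE 0.66, adjusted p = 0.0347), and ES replicate 2 lay within the erythroid range. Il9r with Mpg had a change of -1.69 (SE 0.55, adjusted p = 0.025).

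Of the 3 other lower pairs, Snrnp25 with Rhbdf1 was read 10, 18 and 38 times against 237, 45 and 100 times, a change of -1.83 (SE 0.52, adjusted p = 0.0118). Mpg with the CTCF -38/-39 sites was read 30, 15 and 81 times against 265, 165 and 132 times, which is 0.370, 0.201 and 0.414 per 1000 against 0.971, 1.54 and 0.927. The change was -1.78 (SE 0.45, adjusted p = 0.00638). Mpg with R3 had a change of -1.45 (SE 0.46, adjusted p = 0.025). Il9r with Mpg and the pairs with Mpg in this paragraph lie outside the 5 of largest change and were named after their values were seen, as were the following. With the adult globin genes the pairs did not pass the test in either direction, and their values scattered: Snrnp25 with Hba-a2 was at 1.61 (SE 1.06), Rhbdf1 with Hba-a1 at 1.05 (SE 0.67) and Mpg with Hba-a2 at -0.32 (SE 1.05).

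The 8 calls were not equally firm. The count was 4 without erythroid replicate 1, 3 without erythroid replicate 2, 5 without erythroid replicate 3 and 1 without ES replicate 1, the deepest R2 sample. Il9r with R4 lost the call without each of the erythroid replicates (adjusted p = 0.140, 0.107 and 0.106). Without ES replicate 1 or 2 this pair fell under the count minimum and was not tested. It kept the call without ES replicate 3 (adjusted p = 0.0413). Il9r with Rhbdf1 lost it without erythroid replicate 2 or 3 and without ES replicate 1 or 3 (adjusted p from 0.0698 to 0.309). Il9r with R1 lost it without erythroid replicate 1 or 2 and without ES replicate 1 (adjusted p from 0.0677 to 0.166), and Snrnp25 with Rhbdf1 without erythroid replicate 1 or ES replicate 1 (adjusted p = 0.0692 and 0.101). With only the first technical replicates, Il9r with Rhbdf1 was at -0.64 (adjusted p = 0.618) and Snrnp25 with Rhbdf1 at -1.10 (adjusted p = 0.425). With pairs within 150 kb as total, Il9r with R4 and with Rhbdf1 missed the threshold (adjusted p = 0.0529 each). Without the first erythroid technical libraries, these 2 pairs and Il9r with R1 did (adjusted p = 0.0607 each).

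From alpha CTCF, 44 of 46 possible pairs with a gene were tested, and 2 were lower in erythroid cells, where 2.5% of all 80 pairs were lower and 0% higher. At an unadjusted p under 0.05 there were 7 lower and 3 higher pairs with a gene, and DESeq2 called 3 in each direction. Il9r with R2 was read 0, 6 and 28 times against 132, 18 and 35 times, a change of -3.06 (SE 0.82, adjusted p = 0.0173). Seen from R2, the pair of Il9r with CTCF -38/-39 joins the same named sites. Its change there was -1.11 (SE 0.64, adjusted p = 0.231), and the groups overlapped. Il9r with Hba-x, the embryonic zeta-globin gene, was read 17, 0 and 7 times against 75, 30 and 29 times, a change of -2.88 (SE 0.87, adjusted p = 0.0423). The count was 0 without each replicate except erythroid replicate 1, where it was 2, Il9r with Hba-x and Snrnp25 with R3. Il9r with R2 lost the call without each replicate in turn (adjusted p from 0.0666 to 0.235). Mpg with the CTCF +44 site pointed the other way, with 148, 139 and 182 reads against 89, 15 and 19 and no overlap per 1000 (0.995, 1.06 and 0.598 against 0.439, 0.175 and 0.190), but missed the threshold at 1.69 (SE 0.61, adjusted p = 0.0768). Rhbdf1 with +44 was at 1.58 (SE 0.65, adjusted p = 0.138), and Mpg with R2 at -1.65 (SE 0.56, adjusted p = 0.0768). DESeq2 gave 2.03 (adjusted p = 0.00289), 1.78 (adjusted p = 0.0156) and -1.49 (adjusted p = 0.0412) for these 3 pairs, which were named after their values were seen. Mpg with R2 joins the same named sites as Mpg with CTCF -38/-39 seen from R2. These are therefore readings of 1 three-way contact from either viewpoint, in the same libraries.

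**Figure D5:**
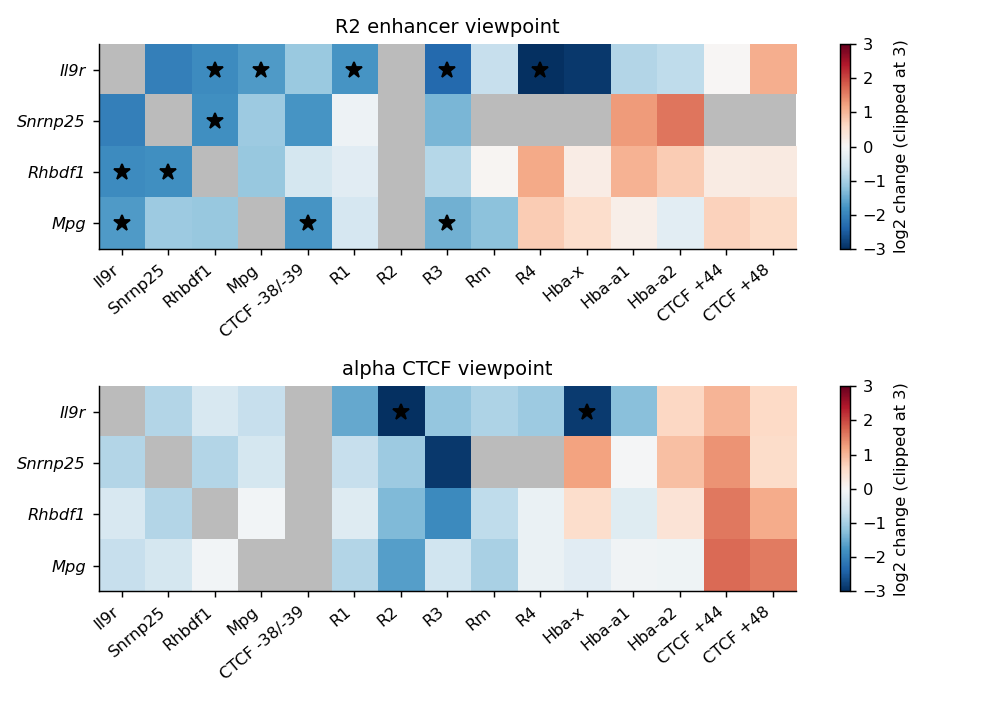
Change of pairs that join a gene window (rows) to another gene or a regulatory site (columns), as log2 erythroid minus ES, from R2 (top) and alpha CTCF (bottom), clipped at 3. Stars are pairs past the adjusted threshold and grey squares pairs not defined or under the count minimum; the 8 starred pairs from R2 (gene with gene shown on both sides of the diagonal) and the 2 from alpha CTCF are all lower in erythroid cells.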

How the data were processed

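Counts were taken as deposited by the authors: an entry lists 2 NlaIII fragments and how often each of 17 libraries held them, in whole numbers. The submitters' processing notes name Trim Galore, Bowtie and mm9; duplicate removal and filters are not given in the sources used here. Technical replicates were summed, leaving 3 biological replicates per group.

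A pair was counted once in each window it touched. Pairs with both fragments on chromosome 11 were used and their total was the library size, with no normalization factors; fragments within 1 kb of a viewpoint and bins under 50 counts (pairs under 30) were left out. Windows were tested with edgeR 4.0.16 (quasi-likelihood, R 4.3.3), within 150 kb and per viewpoint; standard errors were derived from the change and its F statistic (|change| over the root of F). DESeq2 1.42.0 with its own size factors, other totals, counting rules and each replicate left out were alternatives. Single values used exact permutation tests. Counting and single values were computed in Python 3.11.15. The edgeR fits of bins and of the interaction, in R, were tested on simulated data. The partner shares use all flank pairs, also those with a fragment listed on another chromosome, whose placement is in doubt as said above. The coordinates of promoters are not printed because RefSeq's build differs from mm9.

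The genes were always named, with up to 3 bins and 5 pairs per viewpoint and direction, those of largest called change (bins without overlap), and the 3 highest fragments. The members, windows and lists were chosen with earlier results of these data known. Added after the files were seen were the flank's own total, the gene-window interaction, the chromosome 11 base for partners, and leaving out neighbouring fragments or the first erythroid technical libraries.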

Additional observations from a re-analysis of the deposited data

Results flagged for a closer look

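The change between cell types differed between the viewpoints in the interaction test (edgeR, adjusted p under 0.05). This held for 15 of the 24 flank bins, each lower from R2 than from alpha CTCF. It held for the 4 gene windows, with differences of the log2 changes of -1.05 at Il9r, -0.92 at Snrnp25, -0.55 at Rhbdf1 and -0.81 at Mpg; with TMM factors these 4 turned and none was called. The share of counts that lay wholly on chromosome 11 and the level of the mirror stretch differed between cell types from R2 more than from alpha CTCF; their part in these differences was not tested.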

How the results depend on the processing

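From R2, 19 of 24 bins and 4 of 4 gene windows were lower in erythroid cells. With 1 replicate left out these counts were 16 to 19 and 4 to 4, the flank level difference was -54.4 to -44.7 pairs per 1000, and that against the mirror stretch -28.2 to -26.1 percentage points. The number of bins called in either direction was 6 with TMM (2 lower), 8 with DESeq2 (2 lower), 8 with the flank's own total (4 lower) and 11 of 12 in 4 kb bins. The number of gene windows was 1 with TMM and the flank's own total (Il9r, lower) and 1 with DESeq2 (Rhbdf1, higher). The Snrnp25 change turned to 0.11 with DESeq2, that of Rhbdf1 to 0.27 with TMM, 0.55 with DESeq2 and 0.27 with the flank's own total, and that of Mpg to 0.12, 0.37 and 0.12. These settings centre features nearer to 0 by construction: over all bins from R2 the calls were 105 lower and 20 higher in the main setting, 26 and 39 with TMM and 21 and 45 with DESeq2. From alpha CTCF they were 52 and 18, 10 and 32, and 20 and 30. From alpha CTCF the count of 6 bins was 0 with pairs within 150 kb as total, 1 with the first technical replicates and 2 without neighbouring fragments, and 0 to 7 with 1 replicate left out. The count of gene windows was 2 with TMM (both higher), 0 with pairs within 150 kb and 0 with the first technical replicates. The Snrnp25 value turned to 0.23 with TMM and 0.18 with DESeq2, and that of Rhbdf1 to 0.31, 0.26 and, with pairs within 150 kb, 0.03. That of Mpg turned to -0.02 with each fragment pair counted once, to -0.11 with the first technical replicates and to -0.03 without erythroid replicate 1.

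The count of lower gene pairs from R2, 8, was 19 with the whole table as total, 15 with each fragment pair counted once, 5 with the first technical replicates, 4 without the first erythroid technical libraries, and 1 to 8 with 1 replicate left out. From alpha CTCF the count of 2, both lower, was 1 with TMM (higher), 1 with no count minimum (lower), 6 with DESeq2 (3 lower), 1 with pairs within 150 kb (lower), 5 with each fragment pair counted once (4 lower), and 0 with the whole table, the first technical replicates, without the first erythroid technical libraries and without neighbouring fragments, and 0 to 2 with 1 replicate left out. The viewpoint difference in 15 bins was 0 with TMM, 24 with the whole table, 8 with the first technical replicates and 6 to 18 with 1 replicate left out. In gene windows it was 0 with TMM, 2 with the first technical replicates and 3 to 4 with 1 replicate left out, and with TMM the differences turned to 0.10 (Il9r), 0.23 (Snrnp25), 0.60 (Rhbdf1) and 0.34 (Mpg). The R2 flank level difference of -51.1 was -60.2 with all pairs of the table, and the -27.1 points against the mirror stretch were -24.3 with each fragment pair counted once. From alpha CTCF the 5.68 points against the next stretch were 4.21 with the first technical replicates.

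Among partner classes from R2, the globin-gene difference of 3.78 points was 3.12 with the first technical replicates, 4.65 without neighbouring fragments and 4.68 on chromosome 11 pairs only. That between flank and enhancers was -3.02 with the first technical replicates, and that of other chromosomes 3.47 with each pair counted once and 2.52 with the first technical replicates. From alpha CTCF the difference beyond the globin genes was 5.30 with each pair counted once, 5.53 without neighbouring fragments and 5.09 on chromosome 11 pairs only, and that between flank and enhancers was -4.38 without neighbouring fragments. The cause of these moves was not tested beyond what a setting's construction shows.

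The groups share replicate numbers. Same-numbered samples deviated together with correlations of 0.02, 0.06 and 0.05 from R2 and 0.05, -0.27 and -0.17 from alpha CTCF. Samples of different number had correlations of -0.07 to 0.03 from R2 and -0.15 to 0.28 from alpha CTCF. Whether same-numbered samples shared any handling was not tested by these correlations. With the replicate block the counts were 19 bins, 4 gene windows and 5 pairs from R2 and 5 bins, 1 gene window and 0 pairs from alpha CTCF. The pairs past the threshold without the block and not with it included, from R2, Il9r with R4 (adjusted p = 0.242) and with Rhbdf1 (0.0672), and, from alpha CTCF, Il9r with R2 and with Hba-x (0.0825 each). Pairs of windows rest on few reads, and 3 against 3 allows no exact p below 0.1.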
